A study of Mus musculus with 6 samples.

Results

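The enzymes that break down amino acids were compared between fibrotic kidneys of mice on different genetic backgrounds. The 37 member genes were taken from a list of catabolic enzymes, and each was found by rows of the array that carry its symbol and no other. All 37 were measured, among 20416 genes in all. They comprise 14 genes of branched-chain breakdown, 8 of aromatic breakdown, 6 of glycine and methylated glycine, 8 of arginine, proline and glutamate, and 1 of lysine.

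The tissue was kidney from mice labelled as having induced renal fibrosis, with TGFbeta in the name of every group. The B6-TGFbeta group (replicates 1, 2 and 3) is named for the C57BL/6 strain and carries the word WT in the labels. The CBAxB6-TGFbeta group (replicates 4, 5 and 6) is named for CBA and B6 and carries the word KO, without a knocked-out gene being named. No array comes from a kidney without TGFbeta, so a difference between the backgrounds at rest and a different response to TGFbeta cannot be told apart. If the word KO stands for a knockout, its effect cannot be told apart from that of the strain background either. The means by which TGFbeta was raised, its promoter, and the age and sex of the mice were not found in the labels, which say only that littermates of like age and sex made up the cohorts. Nothing states how many animals stand behind each array, and p-values measure only the spread between these arrays. The median log2 intensity of an array ran from 7.27 to 7.34. Of 13 genes that define kidney, 12 were measured and 11 of these had a mean log2 intensity above 8, and Nphs1, which encodes nephrin of the podocyte, stood at 7.05. Replicate 2 of B6-TGFbeta stood apart by bright brown fat, white fat and adrenal markers, replicate 1 by adrenal markers to a lesser extent, and replicates 2 and 6 by the liver gene Alb, and values without replicate 2 are given with the markers below.

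Amino acid breakdown begins with the removal or transfer of the amino group and ends with carbon skeletons that enter the citric acid cycle, gluconeogenesis or ketone synthesis. Most of the later steps of branched-chain breakdown lie in the mitochondrial matrix. In the kidney the proximal tubule reabsorbs filtered amino acids, makes arginine from citrulline, makes the creatine precursor guanidinoacetate, and uses glutamine carbon for ammonia and glucose. Its cells are rich in mitochondria and peroxisomes, where many of these enzymes reside.

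Values below are log2 intensities, given for replicates 1, 2 and 3 of B6-TGFbeta and then for replicates 4, 5 and 6 of CBAxB6-TGFbeta. Differences are CBAxB6-TGFbeta minus B6-TGFbeta on the log2 scale with the standard error of limma's moderated model, and adjusted p-values are limma's after Benjamini-Hochberg correction across the 20416 genes, called when under 0.05. Intensities of different genes are not set against each other, because probes differ in brightness. Sums over a list of genes, given below, are compared only between arrays, and bright genes weigh most in them.

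Of the 37 enzymes, 26 were lower in CBAxB6-TGFbeta kidneys, 1 was higher and 10 did not pass. In all genes 4.57% were called lower, 3.08% higher and 7.65% in either direction. The median log2 difference of the 37 was -0.66, beside 0.02 over all genes. The lower enzymes had differences between -1.24 (Gatm) and -0.50 (Bcat2), and Gatm, Kmo and Fah alone among the 37 reached a 2-fold reduction. For 30 of the 37 the groups did not overlap, against 26.8% of all genes. Calls were lost whichever array was left out. With replicate 1, 2 or 3 of B6-TGFbeta left out and the genes summarised again, 0, 1 and 0 enzymes passed. With replicate 4, 5 or 6 of CBAxB6-TGFbeta left out 6, 1 and 11 passed. In each of these fits 28 to 30 enzymes had an unadjusted p under 0.05 by limma. The share of all genes with such a p was not counted, so these counts do not show whether the enzymes stood out. In the fit to all 6 arrays, limma's unadjusted p of Aass, 0.0471, ranked 4294 among the 20416 genes. An unadjusted p under 0.05 was thus common over all genes in that fit. With the gene values of all 6 arrays kept instead, 13 to 26 passed. All 26 lower enzymes kept a negative difference in all 23 alternatives, which are 598 values from the same 6 arrays. These enzymes were chosen as lower and their groups did not overlap. Alternatives that refit the same gene values, with arrays left out or weighted, therefore could not change the sign.

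**Figure D1:**
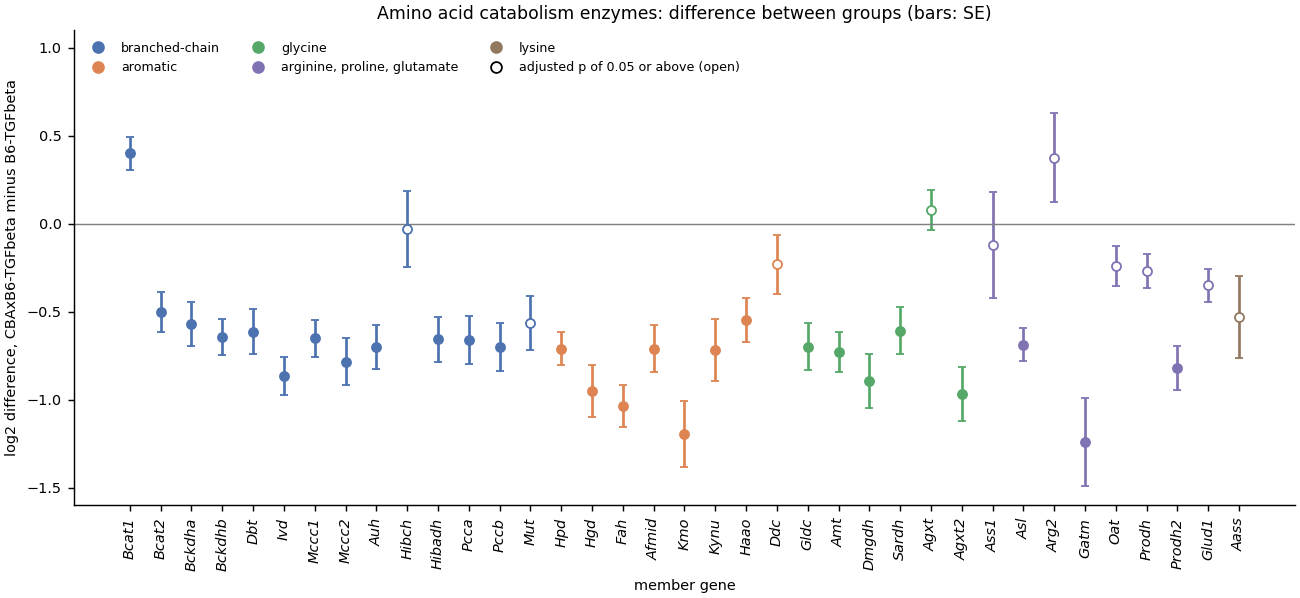
Log2 difference (CBAxB6-TGFbeta minus B6-TGFbeta) of each of the 37 enzyme genes, coloured by amino acid group, with bars for the standard error of the moderated model. Filled points passed an adjusted p of 0.05 and open points did not; 26 filled points lie below 0 and Bcat1 (0.40) lies above it.

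The sequence upstream of the start of transcription is shown for the called enzyme with the smallest p among those with an entry in the promoter table, in each of the branched-chain, aromatic, glycine and arginine groups, so that the results on these enzymes can be read beside their promoters. The lysine group has no called enzyme and no promoter shown. Each is 250 bases, 5′ to 3′ on the strand of the gene, from RefSeq on GRCm38.p6. Agxt2 was added after the search for motifs, as the only member holding the HNF4A letters. Capitals mark matches to the motifs searched.
Ivd, chr2:118861744-118861993, + strand: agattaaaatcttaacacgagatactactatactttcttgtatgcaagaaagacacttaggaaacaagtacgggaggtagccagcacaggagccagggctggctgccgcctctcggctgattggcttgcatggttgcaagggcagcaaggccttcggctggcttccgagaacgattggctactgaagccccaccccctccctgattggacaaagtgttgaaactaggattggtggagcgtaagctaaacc
Fah, chr7:84605943-84606192, - strand: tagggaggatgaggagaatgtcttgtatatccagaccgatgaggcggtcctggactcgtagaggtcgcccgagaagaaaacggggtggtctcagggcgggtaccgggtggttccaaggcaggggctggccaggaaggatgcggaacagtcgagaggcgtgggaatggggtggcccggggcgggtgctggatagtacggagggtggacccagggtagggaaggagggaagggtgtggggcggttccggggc
Amt, chr9:108296655-108296904, + strand: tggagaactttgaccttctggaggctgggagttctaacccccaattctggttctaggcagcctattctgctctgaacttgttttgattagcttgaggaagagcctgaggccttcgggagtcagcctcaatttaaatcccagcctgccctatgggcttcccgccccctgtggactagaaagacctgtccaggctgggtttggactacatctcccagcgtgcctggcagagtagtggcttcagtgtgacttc
Prodh2, chr7:30493408-30493657, + strand: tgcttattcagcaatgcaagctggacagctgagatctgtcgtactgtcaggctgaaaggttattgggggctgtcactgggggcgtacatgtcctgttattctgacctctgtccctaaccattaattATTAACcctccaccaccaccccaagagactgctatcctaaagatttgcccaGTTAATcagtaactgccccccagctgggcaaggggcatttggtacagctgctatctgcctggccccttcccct
Agxt2, chr15:10358283-10358532, + strand: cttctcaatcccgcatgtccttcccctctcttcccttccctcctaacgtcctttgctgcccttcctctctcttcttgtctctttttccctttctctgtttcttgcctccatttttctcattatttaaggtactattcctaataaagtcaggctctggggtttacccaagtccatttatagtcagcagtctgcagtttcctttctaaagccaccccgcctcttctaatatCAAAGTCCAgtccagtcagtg

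Of the 37 genes, 32 had an entry in the promoter table, with 38 start sites. The letters GTTAAT, part of the site of the tubular factor HNF1, were searched on both strands together with CAAAGTCCA (HNF4A), TGATGCAAT (CEBP with ATF) and TTGCGCAA (CEBP). GTTAAT was present in 3 of the 38 member promoters (7.89%) and in 6.43% of all 32851 promoters of this length. It occurs in the promoter of Prodh2 at 2 places, and in Bckdhb and Haao. CAAAGTCCA was present in 2 of the 38 (5.26%) and in 0.384% of all promoters. Both are overlapping windows of Agxt2 that hold the same stretch of bases. They are not separate occurrences, so the 2 percentages cannot be read as an excess among the members. The other motifs were in none of the member promoters and in 0.167% and 0.164% of all promoters. A match is a string of letters in a window and was not tested for binding. Member promoters held 55.5% G and C, beside 53.2% in all promoters. Hnf4a itself, the gene of a nuclear receptor of proximal tubule and liver, was lower (-0.89, SE 0.14, adjusted p 0.00699).

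Branched-chain amino acids lose their amino group first. Bcat2 encodes the mitochondrial aminotransferase and Bcat1 the cytosolic one, and they moved in opposite directions. Bcat2 stood at 8.34, 8.41 and 8.24 in B6-TGFbeta and at 8.02, 7.75 and 7.71 in CBAxB6-TGFbeta, a difference of -0.50 (SE 0.11, adjusted p 0.0284). Bcat1 stood at 6.44, 6.47 and 6.38 in B6-TGFbeta against 6.91, 6.78 and 6.81, a difference of 0.40 (SE 0.09, adjusted p 0.0335). The groups did not overlap for either gene, and Bcat1 was the only enzyme of the 37 to be called higher. Its 13 probe sets ranged from -0.01 to 1.38 and the brightest of them gave -0.01. Without replicate 1, with the genes summarised again, the difference of Bcat1 was 0.24.

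The branched-chain keto acid dehydrogenase then commits the carbon to oxidation. Bckdha and Bckdhb encode the subunits of its decarboxylase, and Dbt encodes the transacylase of its core. Bckdha was 7.50, 7.34 and 7.47 in B6-TGFbeta and 7.01, 6.98 and 6.60 in CBAxB6-TGFbeta, with a difference of -0.57 (SE 0.13, adjusted p 0.0279). Bckdhb was 8.73, 8.69 and 8.63 in B6-TGFbeta against 8.16, 8.04 and 7.91, with a difference of -0.64 (SE 0.10, adjusted p 0.00665). Dbt was 9.84, 9.62 and 9.39 in B6-TGFbeta against 8.92, 8.97 and 9.13, with a difference of -0.61 (SE 0.13, adjusted p 0.0224). All 3 genes were lower, by 1.49- to 1.56-fold on the linear scale, and each array of CBAxB6-TGFbeta lay below each array of B6-TGFbeta. Of the regulators in the list of other pathway genes, the phosphatase gene Ppm1k, which activates the complex, was lower (-0.74, SE 0.16, adjusted p 0.0231), and the kinase gene Bckdk, which inhibits it, had -0.35 (SE 0.15, adjusted p 0.201). Ppm1k and Bckdk, and Chdh, Qprt, Tat and Tdo2 below, were picked for their place in the route. The other pathway genes named beyond the 37 are the called genes with the smallest p of their lists, and so were chosen on their values.

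Leucine breakdown follows with isovaleryl-CoA dehydrogenase, encoded by Ivd, whose promoter is printed above. Ivd was 9.15, 9.09 and 8.87 in B6-TGFbeta and 8.24, 8.09 and 8.19 in CBAxB6-TGFbeta, a difference of -0.87 (SE 0.11, adjusted p 0.00217) and the smallest p of the branched-chain group. Mccc1 and Mccc2 encode the subunits of methylcrotonyl-CoA carboxylase, the biotin enzyme after it. Mccc1 was 9.21, 9.13 and 8.91 in B6-TGFbeta against 8.42, 8.39 and 8.48, a difference of -0.65 (SE 0.11, adjusted p 0.00761). Mccc2 was 9.03, 8.76 and 8.58 in B6-TGFbeta against 7.84, 8.04 and 8.13, a difference of -0.78 (SE 0.13, adjusted p 0.00935). Auh, which encodes the hydratase of methylglutaconyl-CoA and also binds RNA, was 9.73, 9.58 and 9.59 in B6-TGFbeta against 8.73, 8.89 and 9.17, a difference of -0.70 (SE 0.12, adjusted p 0.0113). Every enzyme of this route from Bcat2 to Auh among the 37 was called lower, and none of their groups overlapped.

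In valine breakdown Hibadh was lower and Hibch was not called. Hibadh, the dehydrogenase of hydroxyisobutyrate, was 10.22, 9.90 and 9.95 in B6-TGFbeta against 9.24, 9.29 and 9.57, a difference of -0.66 (SE 0.13, adjusted p 0.0166). Hibch, the hydrolase just before it, was 8.01, 8.42 and 7.69 in B6-TGFbeta and 7.78, 7.81 and 8.43 in CBAxB6-TGFbeta, a difference of -0.03 (SE 0.22, adjusted p 0.957) that did not pass. Replicate 2 and replicate 6 were the high arrays of Hibch, and the same arrays had the liver gene Alb at 9.45 and 10.94, against 6.00 to 6.29 in the other 4. The 12 liver markers summed to 4188 and 6671 there on the linear scale, against 2752 to 4170 in the other 4. The part of other tissue in the Hibch values was not tested. Its probe sets disagreed: 7 of 13 were lower and 6 higher, from -1.55 (6.46 to 4.91) to 1.06 (5.61 to 6.67). The dehydrogenase gene Aldh6a1, at the end of the valine route, was lower (-1.16, SE 0.11, adjusted p 0.000696).

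Propionyl-CoA, which arises from valine and isoleucine, is carboxylated by the enzyme of Pcca and Pccb and rearranged by methylmalonyl-CoA mutase, encoded by Mut (now named Mmut). Pcca was 10.08, 10.12 and 9.81 in B6-TGFbeta and 9.14, 9.31 and 9.58 in CBAxB6-TGFbeta, a difference of -0.66 (SE 0.14, adjusted p 0.0216). Pccb was 9.93, 9.91 and 9.55 in B6-TGFbeta against 9.21, 9.18 and 8.89, a difference of -0.70 (SE 0.14, adjusted p 0.0165). Mut was 10.75, 10.64 and 10.45 in B6-TGFbeta against 9.78, 10.01 and 10.36, a difference of -0.57 (SE 0.15, adjusted p 0.057), which missed the threshold although the groups did not overlap. Mut was called in 5 of the alternatives, with its smallest adjusted p, 0.0131 by limma, without replicate 6 and with gene values kept. Both carboxylase subunits were called and the mutase was not; a difference between them was not tested.

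Of the 14 branched-chain enzymes 11 were lower, 1 was higher and 2 missed the threshold; the median difference was -0.65. When each gene was read from its brightest probe set alone, 1 of the 14 (Mccc2) was called, and 0 to 4 were called whichever array was left out and the genes summarised again.

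**Figure D2:**
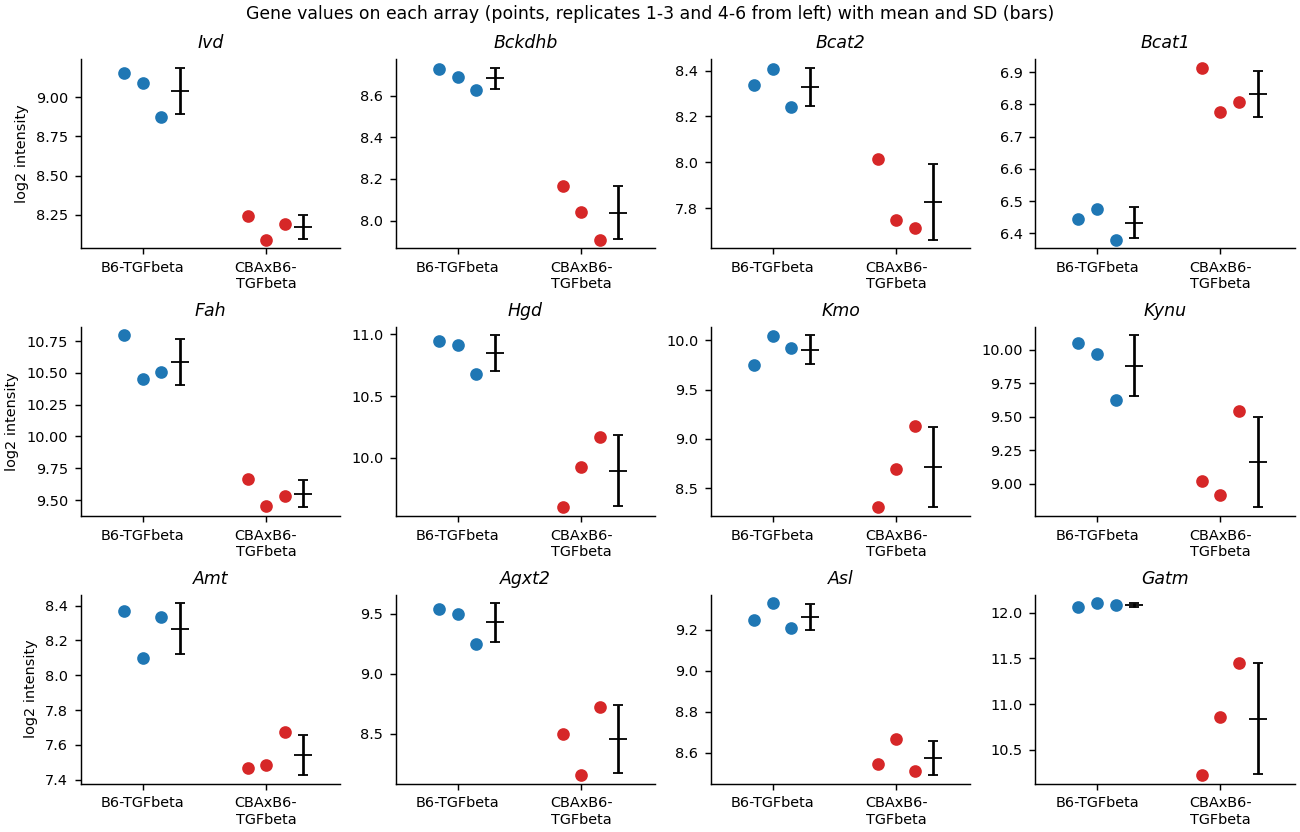
Log2 intensity of 12 enzyme genes on each array, B6-TGFbeta in blue and CBAxB6-TGFbeta in red, with the mean and SD of each group as black bars; each panel has its own vertical scale. The groups do not overlap in any panel, and Bcat1 is the panel in which CBAxB6-TGFbeta is the higher group. The 12 were picked from the called enzymes, none of which had overlapping groups, so the lack of overlap follows from that choice.

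Of the 8 enzymes of aromatic breakdown 7 were lower, none was higher and Ddc did not pass; the median difference was -0.71. Tyrosine is broken down by the dioxygenases of Hpd and Hgd and the hydrolase of Fah, which releases fumarate and acetoacetate. Hpd was 6.94, 6.88 and 6.94 in B6-TGFbeta and 6.24, 6.12 and 6.28 in CBAxB6-TGFbeta, a difference of -0.71 (SE 0.09, adjusted p 0.00284). Hgd was 10.95, 10.91 and 10.68 in B6-TGFbeta against 9.60, 9.92 and 10.17, a difference of -0.95 (SE 0.15, adjusted p 0.00668). Fah was 10.80, 10.46 and 10.51 in B6-TGFbeta against 9.67, 9.45 and 9.53, a difference of -1.04 (SE 0.12, adjusted p 0.00138), which is 2.05-fold lower on the linear scale. Fah had the smallest p of the 37 enzymes, and all 14 of its probe sets were lower and did not overlap between the groups. These probe sets share the same arrays, and the share of all probe sets without overlap was not counted. Hpd rested on less even probe sets, from -2.33 to 0.15, and its brightest gave -0.13.

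Tryptophan breakdown runs along the kynurenine pathway, in which Afmid releases kynurenine, Kmo hydroxylates it, and Kynu and Haao carry it on towards the precursor of NAD. Afmid was 8.09, 7.74 and 8.20 in B6-TGFbeta and 7.33, 7.18 and 7.40 in CBAxB6-TGFbeta, a difference of -0.71 (SE 0.13, adjusted p 0.0141). Kmo was 9.76, 10.04 and 9.93 in B6-TGFbeta against 8.31, 8.70 and 9.13, a difference of -1.20 (SE 0.19, adjusted p 0.00623), which is 2.29-fold lower. Kmo varied more within CBAxB6-TGFbeta (SD 0.41) than within B6-TGFbeta (SD 0.14), with replicate 4 the lowest and replicate 6 the highest. Kynu was 10.05, 9.97 and 9.62 in B6-TGFbeta against 9.02, 8.92 and 9.55, a difference of -0.72 (SE 0.18, adjusted p 0.0416), and its groups were separated by less than 0.1 between replicate 3 and replicate 6. Haao was 7.46, 7.44 and 7.08 in B6-TGFbeta against 6.67, 6.86 and 6.81, a difference of -0.55 (SE 0.13, adjusted p 0.0318). All 4 genes of this route were called lower, Kynu and Haao close to the threshold. The brightest probe set gave -0.01 for Afmid and -0.08 for Haao, against -0.98 for Kmo and -0.60 for Kynu.

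Ddc encodes the decarboxylase that makes dopamine and serotonin from hydroxylated aromatic amino acids. Ddc was 7.97, 7.98 and 7.50 in B6-TGFbeta and 7.76, 7.28 and 7.72 in CBAxB6-TGFbeta, a difference of -0.23 (SE 0.17, adjusted p 0.491), and the groups overlapped. Without replicate 5 it was -0.01 with the genes summarised again. Around these enzymes, the isomerase gene Gstz1 between Hgd and Fah was lower (-1.11, SE 0.11, adjusted p 0.000891), as was Acmsd, which draws the product of Haao away from NAD synthesis (-1.62, SE 0.32, adjusted p 0.0167). Qprt, which takes it towards NAD, had 0.17 (SE 0.12, adjusted p 0.463). The liver enzymes of the entry steps, Tat and Tdo2, stood at 5.42 ± 0.14 in B6-TGFbeta and 5.44 ± 0.11 in CBAxB6-TGFbeta (SD, n = 3) and at 4.31 ± 0.12 in B6-TGFbeta and 4.38 ± 0.46 in CBAxB6-TGFbeta (SD, n = 3), and neither passed. Read from brightest probe sets alone, 2 of the 8 aromatic enzymes were called, Fah and Hgd, and 0 to 3 were called whichever array was left out and the genes summarised again.

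**Figure D3:**
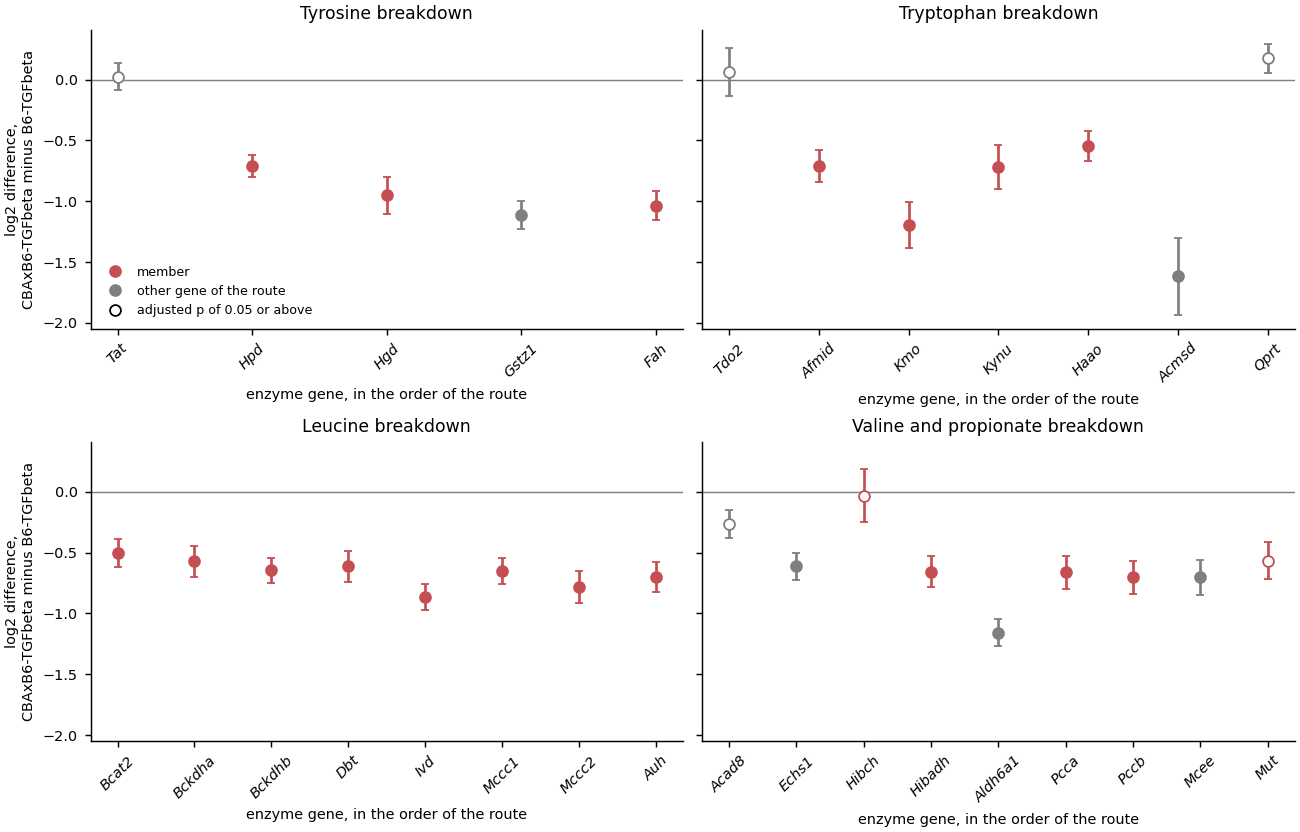
Log2 difference (CBAxB6-TGFbeta minus B6-TGFbeta) with its standard error for enzyme genes placed in the order of 4 breakdown routes. Genes that belong to the 37 are in red and other genes of the routes in grey, filled where the adjusted p was under 0.05. Members outside these 4 routes are not drawn. The 8 genes drawn in the leucine route lie between -0.87 and -0.50, while Hibch (-0.03) and Qprt (0.17) are open points near 0. Bcat1 (0.40, called higher), the other aminotransferase gene, and Dld (-0.32, not called), another branched-chain gene, were left out of that route.

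Glycine is split in mitochondria by the glycine cleavage system, of which Gldc encodes the decarboxylase and Amt the aminomethyltransferase. Gldc was 7.02, 7.43 and 7.47 in B6-TGFbeta and 6.50, 6.65 and 6.67 in CBAxB6-TGFbeta, a difference of -0.70 (SE 0.13, adjusted p 0.015). Amt was 8.37, 8.10 and 8.34 in B6-TGFbeta against 7.46, 7.48 and 7.67, a difference of -0.73 (SE 0.11, adjusted p 0.00606). Replicate 1 was the lowest B6-TGFbeta array of Gldc and still lay above all CBAxB6-TGFbeta arrays. Dmgdh and Sardh encode the dehydrogenases of dimethylglycine and sarcosine, which pass methyl groups from choline breakdown to folate. Dmgdh was 8.75, 8.77 and 8.34 in B6-TGFbeta against 7.69, 7.51 and 7.96, a difference of -0.90 (SE 0.15, adjusted p 0.00949). Sardh was 8.51, 8.02 and 8.37 in B6-TGFbeta against 7.77, 7.68 and 7.63, a difference of -0.61 (SE 0.13, adjusted p 0.0262). Without replicate 1, with the genes summarised again, the difference of Sardh was -0.37. Chdh, the choline dehydrogenase gene at the start of that route, was also lower (-0.39, SE 0.09, adjusted p 0.0328).

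Of the aminotransferases of glyoxylate Agxt2 was lower and Agxt was not called. Agxt2, the mitochondrial enzyme of the kidney, which also degrades methylated arginines, was 9.54, 9.50 and 9.25 in B6-TGFbeta and 8.50, 8.16 and 8.72 in CBAxB6-TGFbeta, a difference of -0.97 (SE 0.15, adjusted p 0.00651). All 14 of its probe sets were lower, from -1.59 to -0.62. Agxt, the peroxisomal enzyme known chiefly from liver, was 5.38, 5.04 and 5.13 in B6-TGFbeta against 5.16, 5.26 and 5.36, a difference of 0.08 (SE 0.12, adjusted p 0.77). Its groups overlapped, at a mean log2 intensity of 5.22. Of the 6 glycine enzymes 5 were lower and Agxt was not called; the median difference was -0.71. Read from brightest probe sets alone, only Dmgdh was called, and 0 to 2 were called whichever array was left out and the genes summarised again.

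Arginine and proline metabolism was split. Of the 8 enzymes 3 were lower, none was higher and 5 missed the threshold; the median difference was -0.31. Gatm, which makes guanidinoacetate from arginine and glycine, was 12.06, 12.11 and 12.08 in B6-TGFbeta and 10.22, 10.86 and 11.44 in CBAxB6-TGFbeta, a difference of -1.24 (SE 0.25, adjusted p 0.0184) and 2.36-fold lower, the largest of the 37. Its B6-TGFbeta arrays were within 0.05 of each other (SD 0.02), and its CBAxB6-TGFbeta arrays were spread over more than 1 log2 unit (SD 0.61), with replicate 4 the lowest. Asl, the lyase that releases arginine, was 9.25, 9.33 and 9.21 in B6-TGFbeta against 8.54, 8.67 and 8.51, a difference of -0.69 (SE 0.10, adjusted p 0.0037). Prodh2, which oxidises hydroxyproline, the imino acid of collagen, was 8.18, 7.80 and 7.93 in B6-TGFbeta against 7.05, 7.28 and 7.12, a difference of -0.82 (SE 0.12, adjusted p 0.00548). Prodh, its relative for proline, was 7.85 ± 0.09 in B6-TGFbeta and 7.58 ± 0.05 in CBAxB6-TGFbeta (SD, n = 3), a difference of -0.27 (SE 0.10, adjusted p 0.136).

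Ass1 encodes the synthase that precedes Asl, and its value here rests on 1 probe set. That probe set was 6.99, 6.61 and 6.58 in B6-TGFbeta and 7.08, 6.96 and 5.78 in CBAxB6-TGFbeta, a difference of -0.12 (SE 0.30, adjusted p 0.869). A further 18 probe sets are annotated to both Ass1 and Gm5424 and were left out by the rule. Their median stood at 12.56, 12.55 and 12.74 in B6-TGFbeta and at 11.78, 11.84 and 11.78 in CBAxB6-TGFbeta. All 18 were lower, from -1.47 to -0.31, and 17 did not overlap between the groups. They share the same arrays, and the share of all probe sets without overlap was not counted. The lowest value, -1.47, belongs to probe sets with identical values on every array. They are not separate measurements, and all of them enter the values given here. Counted as Ass1, a choice made after seeing the data, they gave -0.91 (SE 0.09, adjusted p 0.000771), and the arginine group then had 4 lower enzymes and a median of -0.52. Signal from Ass1 and from Gm5424 cannot be told apart in these rows.

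The enzymes that did not pass included Arg2, the mitochondrial arginase, at 8.40, 7.93 and 7.86 in B6-TGFbeta and 9.07, 8.04 and 8.20 in CBAxB6-TGFbeta, a difference of 0.37 (SE 0.25, adjusted p 0.455). Replicate 4 was its highest array and the groups overlapped. With the genes summarised again the difference of Arg2 was 0.07 without replicate 4, 0.58 without replicate 1 and 0.63 without replicate 5. Oat, which converts ornithine to the precursor of glutamate and proline, was 9.85 ± 0.08 in B6-TGFbeta and 9.61 ± 0.17 in CBAxB6-TGFbeta (SD, n = 3), a difference of -0.24 (SE 0.11, adjusted p 0.256). Glud1, glutamate dehydrogenase, was 11.42 ± 0.07 in B6-TGFbeta and 11.07 ± 0.05 in CBAxB6-TGFbeta (SD, n = 3), a difference of -0.35 (SE 0.09, adjusted p 0.0532) with groups that did not overlap. Glud1 was called in 4 of the alternatives, quantile normalization among them. Aldh4a1, the dehydrogenase after Prodh and Prodh2, was lower (-1.14, SE 0.11, adjusted p 0.000722). Read from brightest probe sets alone, Asl and Prodh2 were called among the 8, and 0 to 2 were called with each array left out in turn and the genes summarised again.

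Aass, the entry enzyme of lysine breakdown, was 8.74, 8.67 and 8.51 in B6-TGFbeta and 8.17, 7.53 and 8.63 in CBAxB6-TGFbeta. Its difference was -0.53 (SE 0.23, adjusted p 0.224), and replicate 6 lay among the B6-TGFbeta arrays. Without replicate 5 the difference of Aass was -0.24. It was called with array weights (-0.80, limma adjusted p 0.0406) and, with gene values kept, without replicate 6 (-0.79, limma adjusted p 0.0343). The later lysine enzymes Gcdh (-1.05, SE 0.10, adjusted p 0.000802), Dhtkd1 (-0.55, SE 0.11, adjusted p 0.0172), Pipox (-0.76, SE 0.10, adjusted p 0.00336) and Aldh7a1 (-0.58, SE 0.12, adjusted p 0.0207) were lower.

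Other genes of the same pathways were listed beside the 37, and 79 of 88 were measured. Of these 31 were lower, none was higher and 48 missed the threshold; the median difference was -0.35. In branched-chain breakdown 9 of 16 were lower, with a median of -0.60, among them Abat, which also transaminates GABA (-1.09, SE 0.10, adjusted p 0.000572), the dehydrogenase gene Acadsb of isoleucine (-0.75, SE 0.11, adjusted p 0.00567) and Mmachc of cobalamin processing (-0.72, SE 0.10, adjusted p 0.00355), beside Aldh6a1. In aromatic breakdown 6 of 14 were lower, with a median of -0.44, including the transaminase gene Ccbl1 (-0.48, SE 0.10, adjusted p 0.0204) and Pcbd1, which recycles biopterin (-0.54, SE 0.12, adjusted p 0.0268), beside Gstz1 and Acmsd. Among glycine, serine, threonine and sulphur genes 11 of 27 were lower, with a median of -0.35. Hao2, a peroxisomal oxidase of hydroxy acids, had the largest difference among them (-2.02, SE 0.27, adjusted p 0.00314), and sulphite oxidase (Suox, -0.79, SE 0.10, adjusted p 0.00304) and the oxidase of D-amino acids (Dao, -0.79, SE 0.11, adjusted p 0.00357) were lower too, as was Pipox. Among arginine, proline, glutamate, histidine and urea cycle genes 2 of 18 were lower, Aldh4a1 and Amdhd1 of histidine breakdown (-0.43, SE 0.11, adjusted p 0.0433), with a median of -0.04. In lysine breakdown 5 of 7 were lower.

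The single probe sets of the called enzymes ran mostly one way. Of 375 probe sets of the 26 lower enzymes, 366 (97.6%) had a negative difference, and in 18 of the 26 genes every probe set did. Such evenness follows in part from the choice of genes, whose values were computed from the same probe sets. Among the exceptions were Bcat2, with 2 of 11 probe sets positive and a highest of 0.60 at 5.42 and 6.02, and Amt, with 1 of 9 positive (0.24) and another at -2.23. Ddc, which did not pass, ranged from -1.29 to 1.00 over 16 probe sets.

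**Figure D4:**
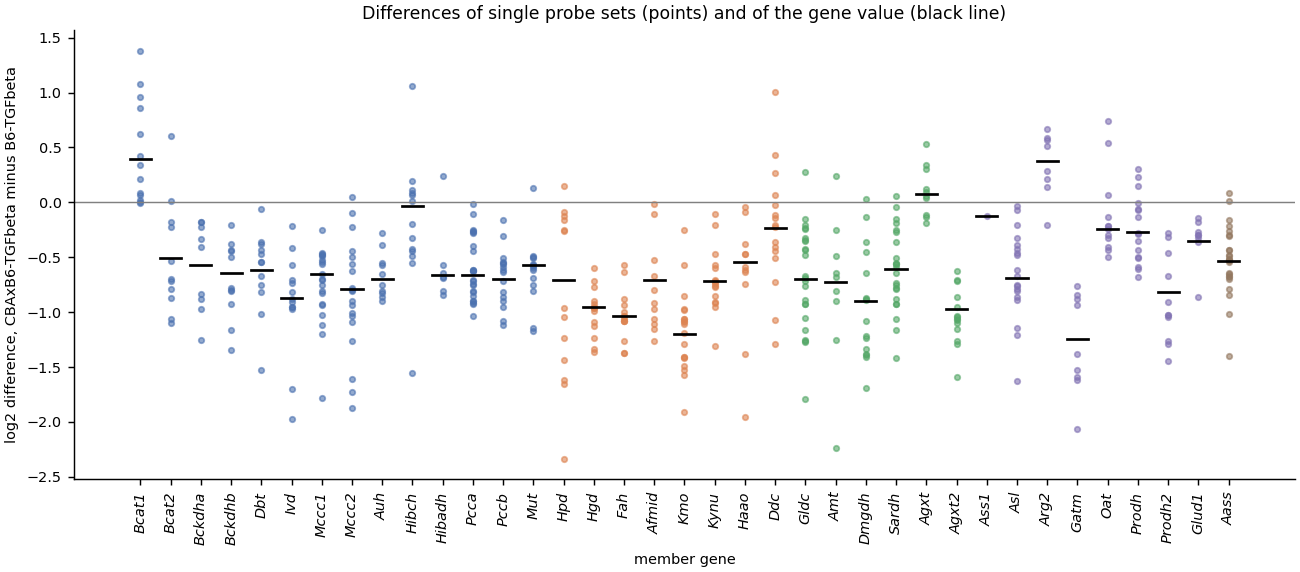
Log2 difference (CBAxB6-TGFbeta minus B6-TGFbeta) of each probe set (points) of the 37 enzymes, coloured by amino acid group, with the gene value as a black line. The points of Fah all lie below -0.5, while those of Hibch and Ddc spread on both sides of 0.

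Markers of cell types moved with the groups, and bulk values cannot separate fewer cells of a type from less RNA per cell. Of 27 measured proximal tubule markers, a list that shares Gatm with the 37, 20 were lower and 0 higher; the median difference was -0.98. Their summed linear intensity was 59811 to 65750 in B6-TGFbeta and 25207 to 37210 in CBAxB6-TGFbeta, and that of the 37 enzymes was 25013 to 28326 and 15315 to 18491. Of 10 tubular injury markers 8 were higher, with sums of 7520 to 7754 and 12902 to 15780. Of 10 macrophage markers 8 were higher, with sums of 1835 to 2477 and 4084 to 6871. Of the 12 kidney-defining genes 9 were lower. The part of these cell types in the enzyme values was not tested.

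Markers of other tissue were uneven among the arrays. Replicate 2 of B6-TGFbeta had the brown fat gene Ucp1 at 10.93, against 5.13 to 6.22 in the other 5 arrays, and the sum of the 10 brown fat markers was 4090 there, against 964 to 1662 in the others. The 10 white fat markers summed to 8891 in replicate 2, against 2259 to 6001 in the others. That list shares Pck1 with the proximal tubule markers, and Pck1 had its lowest difference (-1.99). The 12 adrenal markers summed to 6719 in replicate 2 and to 1267 in replicate 1, against 589 to 639 in the other 4, and Star, which carries cholesterol into steroid synthesis, stood at 10.74 and 8.90 there against 5.86 to 6.46. The part of these tissues in the enzyme values was not tested. Without replicate 2 the median of the 37 enzymes was -0.56, with 1 called, when the genes were summarised again, and -0.64, with 18 called, when the gene values over all 6 arrays were kept. With replicates 1 and 2 both left out, since both carry adrenal markers, and the genes summarised again, the median was -0.51. B6-TGFbeta then has 1 array, and no spread of its own.

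**Figure D5:**
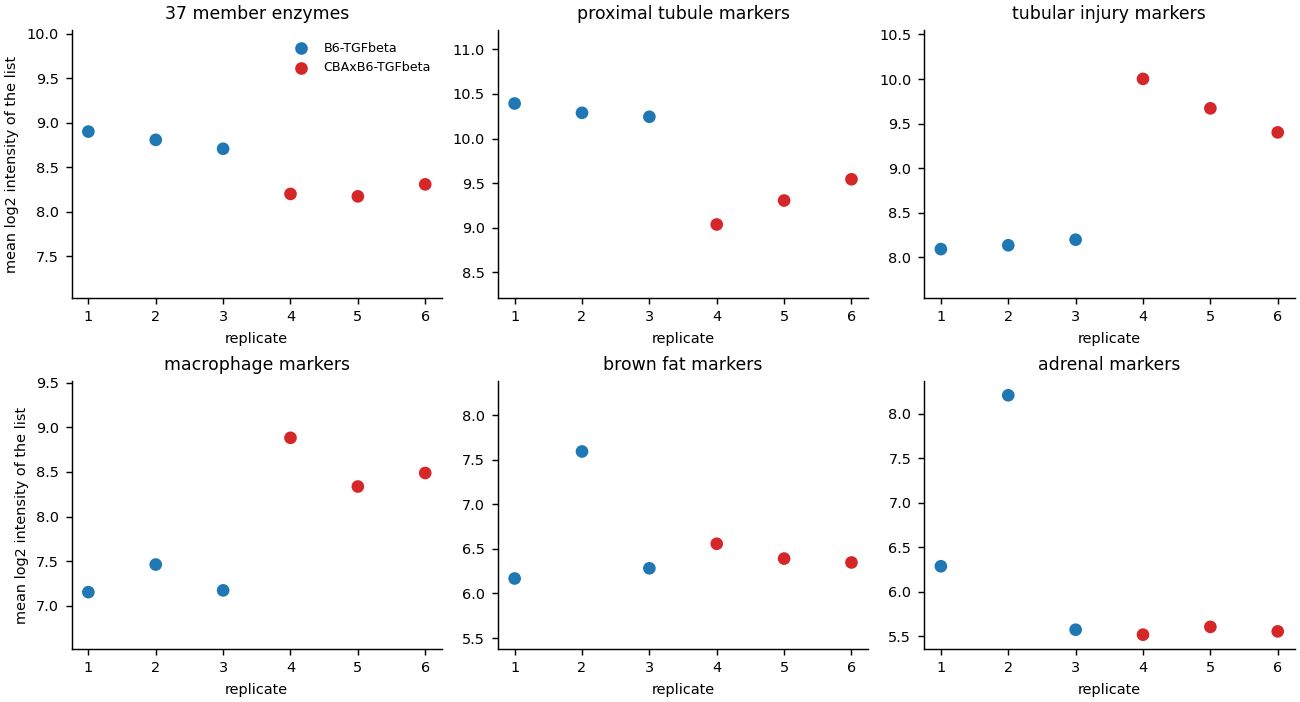
Mean log2 intensity per array of the 37 enzymes and of 5 marker lists, B6-TGFbeta in blue and CBAxB6-TGFbeta in red; each panel spans 3 log2 units. The enzymes and the proximal tubule markers are lower in replicates 4, 5 and 6, the injury and macrophage markers are higher, and the brown fat and adrenal markers stand out in replicate 2.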

How the data were processed

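Kidney RNA was measured on 6 arrays, 3 per group, 1 column per array. The deposited table holds log2 intensities per exon-level probe set; per the submitters' processing notes the authors used RMA and Partek, with versions, settings and genome build not given in the sources used here. Of 241576 rows, 212097 carried 1 symbol in the platform annotation, 4475 several and 25004 none. Median polish of the rows naming 1 symbol gave 20416 genes (median 8 rows per gene).

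The groups were compared with limma 3.58.1 in R 4.3.3, with a group term and no covariate over all 6 arrays, and p-values were two-sided. The code was tested on simulated data. Members, gene lists, motifs and alternatives were chosen with earlier results of these data known. Named were all 37 members, up to 4 called genes of each other pathway list by smallest p, and genes marked as picked otherwise, among them Hnf4a, Alb and Ucp1. Alternatives covered scaling, gene summary, filters, variance models and arrays left out. Gene levels kept over all 6 arrays while an array was left out, and Ass1 with shared rows, were added after seeing the data. Promoters came from a RefSeq table (GRCm38.p6). No array coordinates are given, since the build is unknown. The number of arrays limits the precision.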

Additional observations from a re-analysis of the deposited data

How the results depend on the processing

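No paired analysis was possible because the groups share no replicate numbers. Over 23 alternatives and 27 called enzymes (621 values), 347 kept direction and call, 273 lost the call with the same direction, and 1 reversed. The groups did not overlap for any of the 27, so alternatives that refit the same gene values could not reverse them. The enzymes that were not called passed in 12 values: Mut in 5, Glud1 in 4, Aass in 2 and Ass1 in 1. All genes gave 1562 calls, 617 on brightest probe sets, 63 without moderation of the variances and 40 when B6-TGFbeta was reduced to replicate 3. For the enzymes the respective counts fell from 27 to 6, 1 and 0, for branched-chain ones from 12 to 1, 0 and 0, for aromatic ones from 7 to 2, 1 and 0, for glycine ones from 5 to 1, 0 and 0, for arginine ones from 3 to 2, 0 and 0, and for the other pathway genes from 31 to 11, 1 and 0. Without moderation 30 enzymes had an unadjusted p under 0.05. The share of all genes with such a p was not counted, so that count does not show whether the enzymes stood out. With replicate 3 alone the genes were also summarised again. The spread then came from the CBAxB6-TGFbeta arrays, with the lone array assumed to vary like them. The counts with replicate 3 alone do not bear on variation among B6-TGFbeta arrays. The cause of these falls was not tested. Medians moved to -0.48 (all), -0.37 (aromatic) and -0.40 (branched-chain) on brightest probe sets, to -0.51 (all) and -0.51 (branched-chain) with replicate 3 alone, and to -0.52 (arginine) with the shared Ass1 rows.

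With each array left out and genes summarised again, 57 to 554 genes, 0 to 11 enzymes, 0 to 4 branched-chain, 0 to 3 aromatic, 0 to 2 glycine, 0 to 2 arginine and 1 to 15 other pathway genes were called. With gene values of all 6 arrays kept, the counts were 494 to 1550, 13 to 26, 4 to 12, 4 to 6, 3 to 5, 2 to 3 and 12 to 29. Kept values gave 979 genes and 20 other pathway genes without replicate 2, 711 and 18 without replicate 3, and 866, 20 and 16 of the 37 enzymes without replicate 5. Medians ranged over both kinds from -0.72 to -0.56 (all enzymes), -0.71 to -0.55 (branched-chain), -0.86 to -0.64 (aromatic), -0.78 to -0.50 (glycine), -0.36 to -0.24 (arginine), -0.41 to -0.27 (other pathway genes).

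When genes were summarised again without replicate 6, the median was -0.7038 for all enzymes and -0.755 for glycine ones, and Hibch gave -0.2946. Bcat1 turned to -0.0068 on its brightest probe set. Hibch turned to 0.0099 there, to 0.0928 or, with gene values kept, 0.1584 without replicate 2, to 0.0814 and 0.0665 without replicates 4 and 5 with gene values kept, and to 0.1678 with replicate 3 alone. Ass1 turned to 0.0166 with array weights, to 0.0248 with replicate 3 alone, to 0.0079 without replicate 1 and to 0.2918 without replicate 6. Agxt was removed with the dimmest 25% of genes. Neither quantile normalization nor median centring reversed an enzyme.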

Other observations

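Replicate 1 was the highest of the B6-TGFbeta arrays in 25 of the 37 enzymes and replicate 3 the lowest in 22. Replicate 6 was the highest of the CBAxB6-TGFbeta arrays in 22 of the 37. Such shares were not counted over all genes. The mean of the proximal tubule markers also stood highest in replicate 1 of B6-TGFbeta (10.39, against 10.29 and 10.24). Within CBAxB6-TGFbeta it was highest in replicate 6 (9.54) and lowest in replicate 4 (9.04, against 9.30 in replicate 5). The mean of the 37 enzymes was instead lowest in replicate 5, at 8.20, 8.17 and 8.31 in replicates 4, 5 and 6.

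The spread within CBAxB6-TGFbeta was uneven among enzymes. The SD over its arrays ran from 0.04 to 0.72 in the 37, with a median of 0.16, and the SD over the B6-TGFbeta arrays ran from 0.02 to 0.37, also with a median of 0.16. Acmsd of tryptophan breakdown, at 8.69, 8.95 and 8.81 in B6-TGFbeta against 6.31, 7.49 and 7.80, and the amino acid transporter gene Slc7a13 of the proximal tubule, at 11.12, 10.79 and 10.73 in B6-TGFbeta against 6.73, 9.09 and 10.13, were lowest in replicate 4 and highest in replicate 6 within CBAxB6-TGFbeta, as were Gatm and Kmo. Both were chosen after their values were seen, and no test was made of this pattern. Slc7a13 did not pass the threshold between the groups (adjusted p 0.0828).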
